A study of Rattus with 9 samples.

Results

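The enzymes that make bile acids from cholesterol, and the nuclear receptor FXR with its target Nr0b2, were examined in rat liver as 10 genes: Cyp7a1, Cyp8b1, Cyp27a1, Cyp7b1, Hsd3b7, Akr1d1, Slc27a5, Baat, Nr1h4 and Nr0b2. They were taken by gene symbol from a table of 20236 genes, every symbol was found once, and all 10 had enough signal to be tested. The samples were 9 libraries from livers of the outbred Sprague-Dawley rat, in a study of hyperlipidemia and pomegranate. A pomegranate-high group, a model group and a normal control group had 3 libraries each, all taken after 8 weeks of administration. The labels give neither the diet or agent behind the model nor the pomegranate preparation, its dose, whether the pomegranate-high animals also received what the model group received, or the age, sex and feeding state of the animals. Whether every library is another animal is not stated, and p-values then measure the spread between these libraries, which may be technical. The libraries of the model group carry titles that start with SG and those of the pomegranate-high group titles that start with M. These letters are not explained, and each direction below rests on the group field of the labels. Whether the model and pomegranate-high labels were exchanged was not tested, and an exchange would turn the sign of every difference between these groups and swap their comparisons with the controls.

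Bile acids are the main route by which the body disposes of cholesterol, and the liver makes them along a pair of routes. The classic or neutral route starts when Cyp7a1 hydroxylates cholesterol in the endoplasmic reticulum, and the alternative or acidic route starts when Cyp27a1 oxidises the cholesterol side chain in mitochondria and Cyp7b1 hydroxylates the product. Bile acids bind FXR, encoded by Nr1h4, which pairs with RXR and induces Nr0b2, the repressor SHP, and through it bile acids restrain their own synthesis. In rodents Cyp7a1 is also known to follow feeding, dietary cholesterol and the time of day.

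The deposited unit was FPKM, fragments scaled to the length of the gene and the size of the library, so that levels of different genes can be set side by side. The values gave back whole reads, with depths of 13678658 to 17966670 reads per library, and a gene of 1 kb with 3 reads would stand at 0.167 to 0.219 FPKM. The lowest member value was 2.21 FPKM, so all 10 genes were above this floor in all 9 libraries. Differences are in log2(FPKM + 1), each with a standard error (SE), from 1 limma fit of all 9 libraries over 11078 genes, with Benjamini-Hochberg adjustment and a threshold of 0.05. The hepatocyte markers were high in every library, with a summed level of 56562 to 73734 FPKM in pomegranate-high, 72544 to 84134 in model and 76790 to 84106 in normal control livers. All pomegranate-high sums lay below the control sums. In that comparison 4 of 11 markers were lower without overlap, where 16.1% of all genes had none in either direction. At an unadjusted p under 0.05, 2 of 11 were lower, beside 10.2% of all genes, and 0 passed the adjusted threshold. Reads on mitochondrially encoded genes made up 9.62%, 11.4% and 4.22% of the pomegranate-high libraries, 14.5%, 6.40% and 4.99% of the model libraries, and 6.38%, 4.18% and 4.17% of the control libraries. Model replicate 1 and pomegranate-high replicates 1 and 2, the 3 libraries with the highest mitochondrial share, also resembled the rest least, with median correlations over genes of 0.922 to 0.931, against 0.963 to 0.970 for the other 6. As these are bulk livers, fewer cells of a type and less RNA per cell cannot be told apart.

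Of the 10 genes, Cyp7a1 was the one without overlap with the control livers. It was higher in each of the 3 model and the 3 pomegranate-high libraries than in any control library, yet its difference did not pass the adjusted threshold. The other 9 genes had overlapping values in all 3 comparisons, and between pomegranate-high and model livers 0 of 10 genes were without overlap, where 10.8% of all genes were. In model against normal control livers 0 of 10 genes passed limma's adjusted threshold, where 0.00903% of all genes tested passed, and 1 of 10 had an unadjusted p under 0.05, where 2.98% of all genes did. In pomegranate-high against model livers 0 of 10 passed, beside 0.00903% of all genes, and 0 of 10 had an unadjusted p under 0.05, beside 8.69%. In pomegranate-high against normal control livers 0 of 10 passed, beside 0.0181% of all genes, and 1 of 10 had an unadjusted p under 0.05, beside 10.2%. A moderated F over the 3 groups, which asks for any difference between them, also passed 0 of 10 genes, beside 0.0271% of all genes, with 1 of 10 at an unadjusted p under 0.05 beside 7.67%. Limma's voom on the recovered reads passed 0 of 10 in each of these tests. The median log2 difference of the 10 genes was 0.11 in model against normal control, −0.06 in pomegranate-high against model and 0.11 in pomegranate-high against normal control, and over all genes tested it was −0.03, 0.09 and 0.07.

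**Figure D1:**
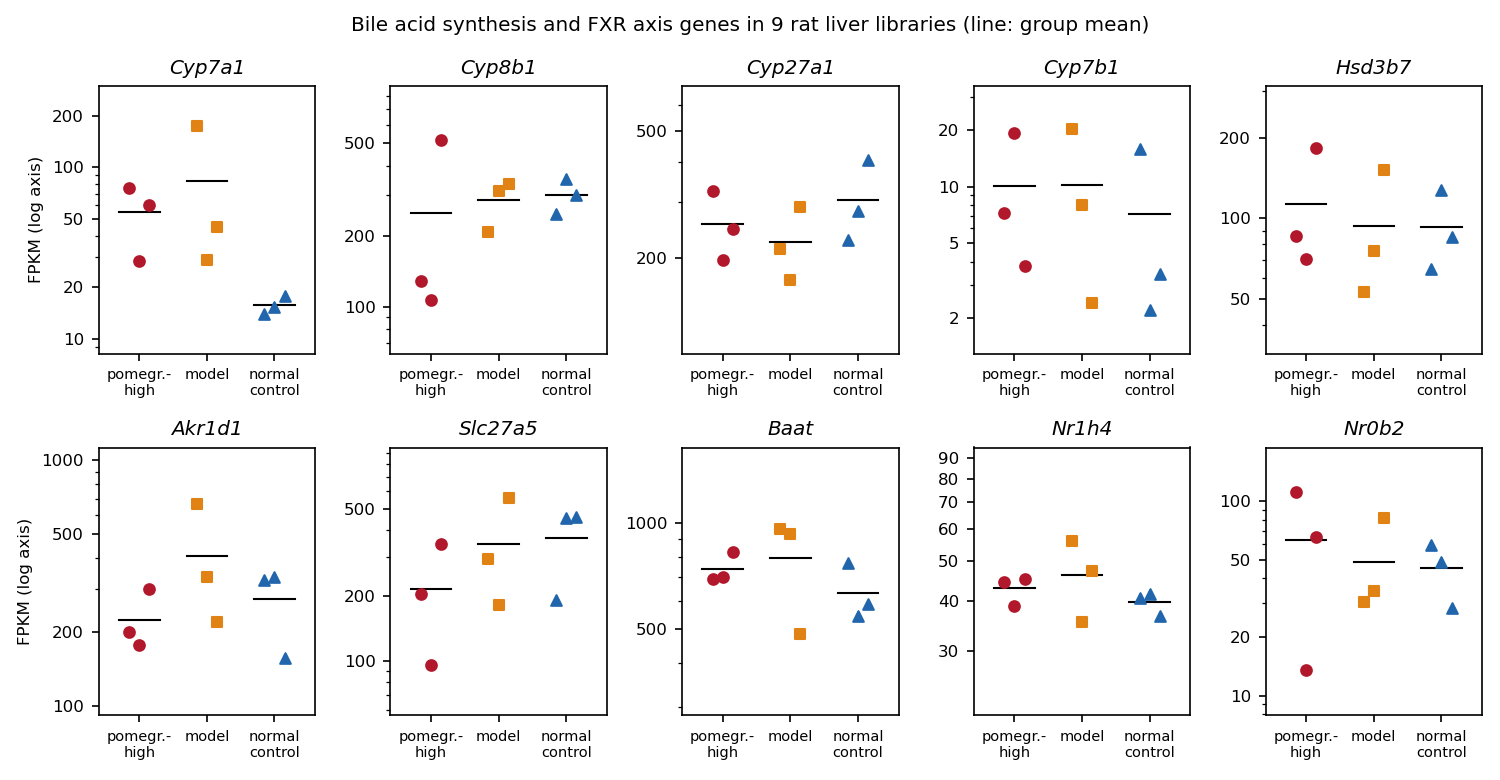
FPKM of the 10 genes in each library, 1 panel per gene on a log axis, with pomegranate-high, model and normal control livers from left to right. Points are libraries and lines are group means (n = 3 per group). The 3 control points of Cyp7a1 lie at 14.0 to 17.9 FPKM, below the 6 points of the other groups, and the points of the other 9 genes overlap.

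In control livers the 10 genes spanned from 7.15 ± 7.54 FPKM for Cyp7b1 to 631 ± 119 FPKM for Baat (SD, n = 3). Baat, which joins finished bile acids to taurine or glycine, was the highest. Slc27a5, Cyp27a1, Cyp8b1 and Akr1d1 followed with means of 366, 305, 300 and 273 FPKM, and their ranges overlapped, so that their order is not fixed by these libraries. Hsd3b7 came next with 92.6 ± 32.5 FPKM (n = 3), below the lowest library of Akr1d1. Nr0b2 and Nr1h4, at means of 45.5 and 39.6 FPKM, overlapped with each other, and Cyp7a1 and Cyp7b1, which carry out the 7-alpha-hydroxylation of the classic and the alternative route, stood lowest and also overlapped. By mean FPKM, counted from the highest of the 20236 genes, Cyp7a1 ranked 1210 in pomegranate-high, 811 in model and 3145 in control livers.

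Cyp7a1 (ENSRNOG00000009488, chr5:19358734-19368431, minus strand, build Rnor_6.0) encodes cholesterol 7-alpha-hydroxylase, the rate-limiting enzyme of the classic route. It stood at 76.2, 28.6 and 60.2 FPKM in pomegranate-high livers, 175, 28.9 and 45.1 FPKM in model livers, and 14.0, 15.3 and 17.9 FPKM in control livers. The control libraries lay within a narrow band, the model libraries spread over a 6.06-fold range with replicate 1 far above the others, and the pomegranate-high libraries spread over a 2.66-fold range. All 6 libraries of the model and pomegranate-high groups lay above all 3 controls, a pattern found in 1.52% of the genes tested. Model livers lay above the controls for 3.97% of the genes tested and pomegranate-high livers for 12.4%, each counted whatever the other group did.

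The log2 difference of Cyp7a1 was 1.90 ± 0.58 SE in model against normal control livers (95% interval 0.61 to 3.20, limma adjusted p = 0.999), with the model higher in 3 of 3 libraries. By unadjusted p it ranked 51 of the 11078 genes in that comparison. In pomegranate-high against normal control livers the difference was 1.64 ± 0.58 SE (95% interval 0.35 to 2.93, limma adjusted p = 0.417), and the gene ranked 471. Both comparisons use the same 3 control libraries. Between pomegranate-high and model livers the difference was −0.27 ± 0.58 SE with an interval of −1.56 to 1.03 (limma adjusted p = 0.913), which holds values beyond 1 on the log2 scale in both directions. Without model replicate 1 the difference of model livers from the controls was 1.16, against 1.90 with it.

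Cyp7a1 is expressed mainly by hepatocytes around the central vein, and the summed level of 9 pericentral hepatocyte markers was set beside it. That sum was 3420, 1596 and 3370 FPKM in pomegranate-high livers, 6260, 1974 and 3163 FPKM in model livers, and 2643, 1939 and 2982 FPKM in control livers. Model replicate 1 was the highest library and pomegranate-high replicate 2 the lowest, and the groups overlapped. In pomegranate-high against normal control livers 6 of 8 tested pericentral markers were higher and 2 lower, 0 passed the adjusted threshold, and their median log2 difference was 0.34 beside 0.07 over all genes. Of these 8 markers, 2 were higher at an unadjusted p under 0.05, which 10.2% of all genes reached in either direction. In model against normal control 6 of the 8 were also higher and 2 lower, with a median of 0.28 beside −0.03 over all genes. There 0 of 8 had an unadjusted p under 0.05, beside 2.98% of all genes. The 7 periportal markers summed to 1364 to 2766 FPKM in pomegranate-high, 2997 to 3546 in model and 3803 to 7060 in control livers, sums without overlap between the groups. Singly, 2 of 7 were lower without overlap in model against normal control and 2 in pomegranate-high against model. In pomegranate-high against normal control 4 were. Over all genes 10.8% lacked overlap in either direction in pomegranate-high against model and 16.1% in pomegranate-high against normal control. For model against normal control that share is not given here. In pomegranate-high against normal control 0 of 7 were higher and 7 lower, with a median log2 difference of −1.37. Of these 7, 5 had an unadjusted p under 0.05, beside 10.2% of all genes. In model against normal control 1 was higher and 6 lower, with a median of −0.63. There 2 of 7 had an unadjusted p under 0.05, beside 2.98% of all genes. In each comparison 0 passed the adjusted threshold. The part of either marker set in the Cyp7a1 values was not tested.

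Cyp8b1 (ENSRNOG00000019481, chr8:130548418-130550388, minus strand), the sterol 12-alpha-hydroxylase, sets how much of the product becomes cholic acid. In the file its annotated length of 1971 bp equals its genomic span, so it has no annotated intron, and for such a gene reads from unspliced RNA or DNA cannot be told from reads of messenger RNA. It stood at 129, 107 and 517 FPKM in pomegranate-high livers, 208, 313 and 333 FPKM in model livers, and 248, 353 and 299 FPKM in control livers. Pomegranate-high replicates 1 and 2 were the lowest of all 9 libraries and replicate 3 the highest. The log2 difference of pomegranate-high from normal control livers was −0.62 ± 0.52 SE (limma adjusted p = 0.665), that from model livers −0.53 ± 0.52 SE (adjusted p = 0.781), and model and control livers differed by −0.09 ± 0.52 SE (adjusted p = 0.999). These values moved with each pomegranate-high library. Without replicate 1 the difference from the controls was −0.33, and without replicate 2 it was −0.20. Without replicate 3 the difference from the controls was −1.33 (limma adjusted p = 0.0511) and that from the model −1.24 (adjusted p = 0.0852), still above the threshold, while the number of all genes called in the first of these comparisons was 328 without that library and 2 with it. Replicates 1 and 2 are also those with the high mitochondrial shares. Without these 2 libraries and model replicate 1 the difference from the controls turned to 0.80, which rests on the single remaining pomegranate-high library.

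Set against Cyp8b1 within each library, Cyp7a1 showed the separation it also showed alone, while Cyp8b1 overlapped between all groups, so that the ratio is a description and not a further result. The log2 ratio of Cyp8b1 to Cyp7a1, each as FPKM + 1, was 0.75, 1.87 and 3.08 in pomegranate-high livers, 0.25, 3.39 and 2.86 in model livers, and 4.05, 4.43 and 3.99 in control livers. All 6 ratios of the pomegranate-high and model libraries lay below the 3 control ratios. The mean ratio differed from that of the controls by −2.26 in pomegranate-high and by −1.99 in model livers, each with an exact two-sided permutation p = 0.1, the smallest that 3 against 3 libraries allow, and 0.3 after adjustment over 6 ratio comparisons. Without model replicate 1 the difference of model livers was −1.03, and without the 3 libraries of highest mitochondrial share that of the single remaining pomegranate-high library was −1.08. Pomegranate-high and model livers differed by −0.27 in this ratio (exact permutation p = 0.9). The log2 ratio of Cyp7a1 to Cyp7b1, the 7-alpha-hydroxylases of the classic and the alternative route, was 3.23, 0.54 and 3.67 in pomegranate-high livers, 3.06, 1.74 and 3.76 in model livers, and −0.17, 2.35 and 2.10 in control livers. Its groups overlapped, and the exact permutation p was 0.3 for model against normal control, 0.8 for pomegranate-high against model and 0.5 for pomegranate-high against normal control.

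**Figure D2:**
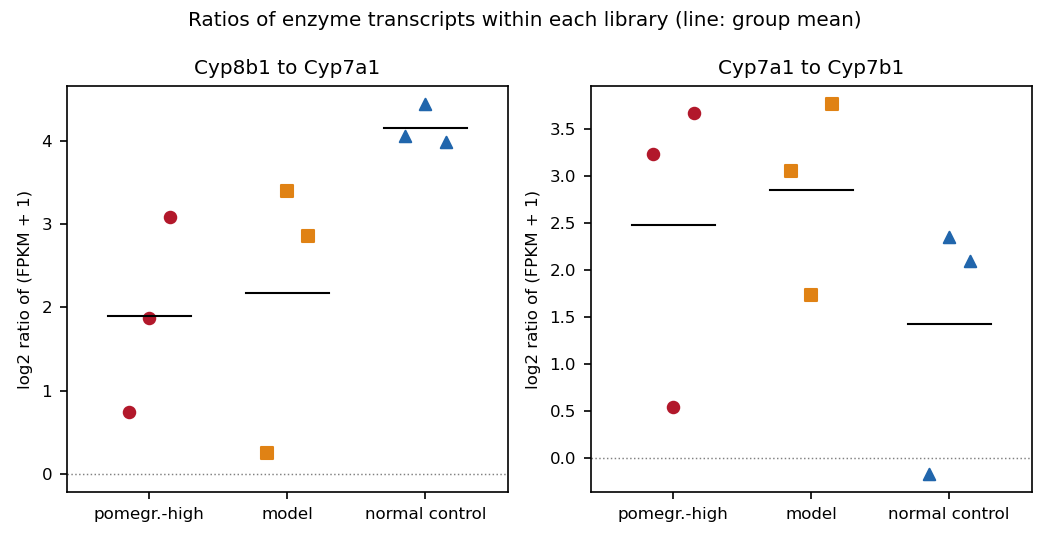
Log2 ratios of Cyp8b1 to Cyp7a1 and of Cyp7a1 to Cyp7b1 within each library, each gene as FPKM + 1, for pomegranate-high, model and normal control livers from left to right. Points are libraries and lines are group means. The 3 control ratios of Cyp8b1 to Cyp7a1 lie at 3.99 to 4.43, above the 6 others, and the ratios of Cyp7a1 to Cyp7b1 overlap.

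Cyp27a1 (ENSRNOG00000017188, chr9:81968332-81998169, plus strand), the mitochondrial sterol 27-hydroxylase, opens the alternative route and also oxidises the side chain in the classic one. It stood at 323, 197 and 247 FPKM in pomegranate-high livers, 214, 171 and 289 FPKM in model livers, and 228, 280 and 406 FPKM in control livers. The groups overlapped, with the highest value in control replicate 3 and the lowest in model replicate 2. Differences were −0.43 ± 0.31 SE in model against normal control (95% interval −1.12 to 0.26) and −0.24 ± 0.31 SE in pomegranate-high against normal control. Macrophages also express Cyp27a1, and the summed level of 13 Kupffer cell and macrophage markers was 623 to 1338 FPKM in pomegranate-high, 174 to 572 FPKM in model and 481 to 890 FPKM in control livers. Its part in the Cyp27a1 values was not tested.

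Cyp7b1 (ENSRNOG00000009730, chr2:102701903-102871257, minus strand), the oxysterol 7-alpha-hydroxylase, had the lowest mean of the 10 genes in each group and, pooled over the groups, the largest within-group SD. It stood at 7.23, 19.3 and 3.79 FPKM in pomegranate-high livers, 20.2, 7.96 and 2.40 FPKM in model livers, and 15.8, 2.21 and 3.42 FPKM in control livers. In each group the highest library was at least 5.09-fold above the lowest. In single groups the log2 SD was larger for Nr0b2 in pomegranate-high livers (1.53 against 1.05) and for Cyp7a1 in model livers (1.33 against 1.32). The pooled within-group SD of Cyp7b1, 1.22 on the log2 scale, exceeded that of 99.2% of the genes tested, where the median was 0.343. Across the 9 libraries it was high where the mitochondrial share was high (Pearson r = 0.82, exact permutation p = 0.00692, adjusted p = 0.0692 over the 10 genes, Spearman rho = 0.85, exact permutation p = 0.00607, adjusted p = 0.0607), and 0.61 after leaving out the 2 libraries farthest from the median share. After removing the group means the correlation was 0.83. The difference between model and normal control livers was 0.48 ± 0.78 SE with a 95% interval of −1.26 to 2.22.

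The 4 enzymes that act after the entry steps showed no separation between groups. Hsd3b7 (ENSRNOG00000019080, chr1:199248470-199251740, plus strand), which oxidises the 3-beta-hydroxyl group of the sterol ring, stood at 85.8, 70.8 and 184 FPKM in pomegranate-high livers, 53.1, 75.8 and 152 FPKM in model livers, and 64.5, 128 and 85.0 FPKM in control livers. Replicate 3 was the highest library in both the pomegranate-high and the model group. Akr1d1 (ENSRNOG00000013004, chr4:65110746-65143941, plus strand), the 5-beta-reductase that gives bile acids their bent ring, stood at 200, 177 and 299 FPKM in pomegranate-high livers, 664, 337 and 221 FPKM in model livers, and 327, 336 and 157 FPKM in control livers. Model replicate 1 lay far above the rest, and the difference of pomegranate-high from model livers of −0.74 ± 0.44 SE (limma adjusted p = 0.651) was −0.31 without it. Slc27a5 (ENSRNOG00000019626, chr1:65576535-65587186, plus strand), the ligase that activates bile acids with coenzyme A, stood at 203, 96.5 and 344 FPKM in pomegranate-high livers, 294, 181 and 561 FPKM in model livers, and 192, 451 and 456 FPKM in control livers. Pomegranate-high replicate 2 was the lowest library, and the difference of pomegranate-high from control livers was −0.85 ± 0.55 SE (95% interval −2.07 to 0.38, limma adjusted p = 0.595). That difference was −0.36 without pomegranate-high replicate 2 and −1.27 without pomegranate-high replicate 3. Baat (ENSRNOG00000007395, chr5:64768401-64777368, minus strand) stood at 691, 703 and 822 FPKM in pomegranate-high livers, 961, 929 and 483 FPKM in model livers, and 766, 541 and 586 FPKM in control livers. The model group held both the highest and the lowest Baat value of the 9 libraries.

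Nr1h4 (ENSRNOG00000007197, chr7:30003429-30162056, minus strand), the bile acid receptor FXR, was the steadiest of the 10 genes. It stood at 44.5, 38.9 and 45.3 FPKM in pomegranate-high livers, 56.1, 35.6 and 47.3 FPKM in model livers, and 40.6, 41.5 and 36.8 FPKM in control livers. Its within-group SD of 0.21 on the log2 scale exceeded that of 15.1% of the genes tested. The 95% intervals of its differences were −0.30 to 0.70 in model against normal control, −0.59 to 0.41 in pomegranate-high against model and −0.39 to 0.61 in pomegranate-high against normal control. Its span also holds a U7 small nuclear RNA gene on the opposite strand, which reached at most 4.95 FPKM, and the sources used here do not state whether strand was used in counting.

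Nr0b2 (ENSRNOG00000007229, chr5:151776004-151779319, plus strand), the repressor SHP and a direct FXR target, was far less even than its receptor. It stood at 111, 13.5 and 65.7 FPKM in pomegranate-high livers, 30.3, 34.4 and 82.0 FPKM in model livers, and 59.7, 48.8 and 28.1 FPKM in control livers. Pomegranate-high livers held both the highest and the lowest library, an 8.23-fold range. Differences were 0.02 ± 0.68 SE in model against normal control, 0.08 ± 0.68 SE in pomegranate-high against model and 0.10 ± 0.68 SE in pomegranate-high against normal control. The 95% interval of the last of these was −1.40 to 1.60.

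**Figure D3:**
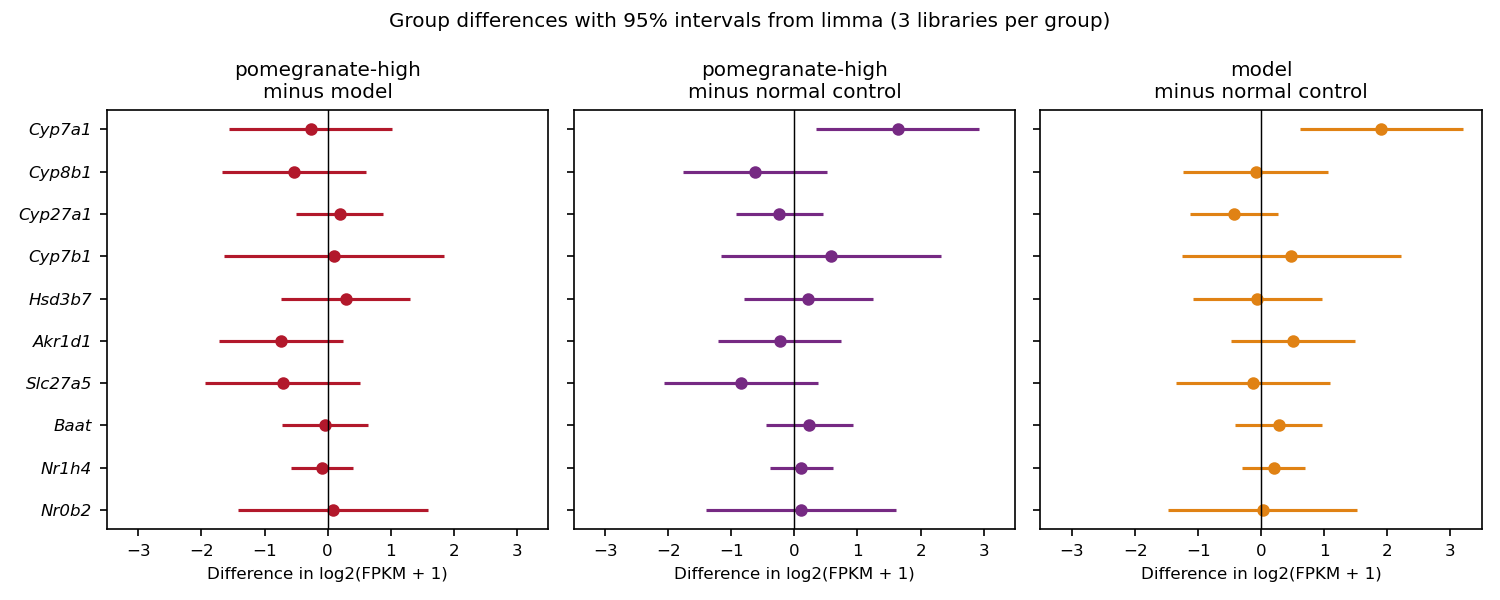
Log2 differences of the 10 genes, on the scale of log2(FPKM + 1), in the 3 comparisons, with points for the limma estimate and lines for its 95% interval. The intervals of Cyp7a1 in model against normal control (0.61 to 3.20) and in pomegranate-high against normal control (0.35 to 2.93) are the ones that do not include 0.

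The genes also differed in how they were spread over libraries. The within-group SD of 6 of the 10 genes, Cyp7b1, Nr0b2, Cyp7a1, Slc27a5, Cyp8b1 and Hsd3b7, exceeded that of 90.9% or more of the genes tested, and Akr1d1 followed at 88.7%. Cyp27a1, Baat and Nr1h4 stood at 59.9%, 55.1% and 15.1%. Model replicate 1 held the highest value of all 9 libraries for Cyp7a1, Cyp7b1, Akr1d1, Baat and Nr1h4, and the lowest for Hsd3b7. The 10 genes together took 0.285%, 0.210% and 0.459% of the summed FPKM in pomegranate-high livers, 0.450%, 0.347% and 0.394% in model livers, and 0.328%, 0.392% and 0.359% in control livers. Markers of the cell types other than hepatocytes and macrophages were summed as well. The 8 cholangiocyte markers summed to 6.80 to 30.5 FPKM in pomegranate-high, 6.73 to 8.32 in model and 6.54 to 9.12 in control livers, with Krt7 at 0 in control replicates 1 and 3. The T cell and leukocyte markers summed to 24.9 to 42.7 FPKM in pomegranate-high, 11.5 to 22.2 in model and 16.8 to 27.9 in control livers. The stellate cell markers summed to 50.03 to 117 FPKM in pomegranate-high, 30.05 to 62.4 in model and 34.1 to 47.5 in control livers. For the sinusoidal endothelial markers the pomegranate-high libraries, at 90.4 to 136 FPKM, and the model libraries, at 67.3 to 109, lay below the control libraries at 137 to 159. In model against normal control 7 of 9 tested were lower at an unadjusted p under 0.05, which 2.98% of all genes reached in either direction. In pomegranate-high against normal control 3 of 9 were, beside 10.2% of all genes. In both comparisons 0 of 9 passed the adjusted threshold. The erythroid markers summed to 1205 to 2167 FPKM in pomegranate-high, 385 to 1013 in model and 985 to 1559 in control livers. In pomegranate-high against model 4 of 5 were higher at an unadjusted p under 0.05, beside 8.69% of all genes. Of these 5, 1 passed the adjusted threshold, beside 0.00903% of all genes. Without overlap, the pomegranate-high sums also lay above the controls for stellate cells and above the model for T cells and erythroid cells. The part of these cell types in the values of the 10 genes was not tested.

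Of the 45 pairs of genes, 6 had an exact permutation p under 0.05 over the 9 libraries and 0 passed after adjustment. The strongest, Cyp7b1 with Hsd3b7, had Pearson r = −0.84 (exact permutation p = 0.00666, adjusted p = 0.192).

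**Figure D4:**
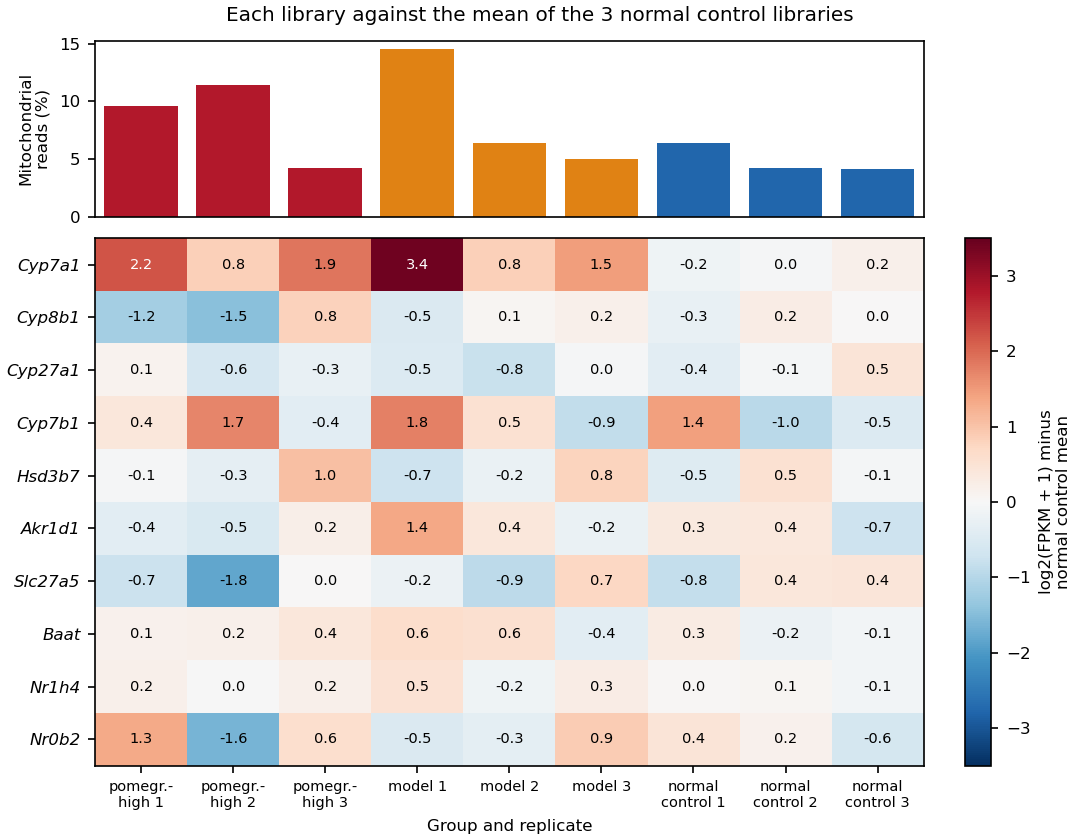
Heat map of log2(FPKM + 1) of each gene in each library minus the mean of the 3 control libraries (red above, blue below), with bars for the share of mitochondrial reads in percent on top, and pomegranate-high, model and normal control libraries from left to right. The row of Cyp7a1 is red in all 6 pomegranate-high and model columns, and the other 9 rows hold values of both signs among those 6 columns.

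Relations with the mitochondrial share were computed for all 10 genes, and 0 passed after adjustment. Cyp8b1 was low where the share was high (Pearson r = −0.75, exact permutation p = 0.0228, adjusted p = 0.0994, Spearman rho = −0.73, exact permutation p = 0.0311, adjusted p = 0.156), with r = −0.90 after leaving out the 2 libraries farthest from the median. For Hsd3b7 r was −0.71 (exact permutation p = 0.0298, adjusted p = 0.0994, Spearman rho = −0.63, exact permutation p = 0.076, adjusted p = 0.19) and −0.52 without those 2 libraries. For Cyp7a1 it was 0.65 (exact permutation p = 0.0592, adjusted p = 0.148, Spearman rho = 0.52, exact permutation p = 0.162, adjusted p = 0.231) and 0.44 without them. With the mitochondrial share as a covariate in the limma fit, the Cyp7a1 difference was 1.23 in pomegranate-high against normal control (adjusted p = 0.521) and 1.48 in model against normal control.

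Of 15 tested genes for further steps of bile acid synthesis and sterol transport, 0 passed limma's adjusted threshold in any comparison, and 0 had an unadjusted p under 0.05. Over all genes 2.98% had one in model against normal control, 8.69% in pomegranate-high against model and 10.2% in pomegranate-high against normal control. In pomegranate-high against normal control livers 3 of the 15 genes were higher and 12 lower, with a median log2 difference of −0.15 beside 0.07 over all genes. Stard5, a cytosolic sterol carrier, had the smallest p of the 15 in that comparison, with 14.5, 17.4 and 26.4 FPKM in pomegranate-high livers and 26.7, 27.3 and 29.8 FPKM in control livers (log2 difference −0.54 ± 0.25 SE, limma adjusted p = 0.498). Slc27a2, a very-long-chain acyl-CoA synthetase that also activates bile acid precursors, stood at 635, 738 and 547 FPKM in pomegranate-high livers and 492, 399 and 482 FPKM in control livers (0.48 ± 0.23 SE, adjusted p = 0.521). Neither gene had overlapping values, a pattern shared by 16.1% of all genes in that comparison. Abcd3, the peroxisomal carrier of bile acid precursors, stood at 44.1, 60.2 and 42.1 FPKM in model livers and 84.2, 62.7 and 64.0 FPKM in control livers (−0.52 ± 0.30 SE, adjusted p = 0.999).

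Of 20 tested regulators of Cyp7a1 and FXR signalling, 0 passed the adjusted threshold in any comparison. In pomegranate-high against model livers 3 were higher and 17 lower, with a median of −0.23 beside 0.09 over all genes, and 2 of 20 had an unadjusted p under 0.05, where 8.69% of all genes did. In model against normal control 0 of 20 had one, beside 2.98% of all genes, and in pomegranate-high against normal control 3 of 20, beside 10.2%. Rxra, the RXR partner with which FXR binds DNA, stood at 6.19, 11.7 and 97.5 FPKM in pomegranate-high livers, 43.2, 75.6 and 124 FPKM in model livers, and 110, 131 and 109 FPKM in control livers. Pomegranate-high replicates 1 and 2 were the lowest of the 9 libraries, and replicate 3 was close to the controls. The difference of pomegranate-high from control livers was −2.49 ± 0.79 SE (limma adjusted p = 0.395). Nr1i2, the pregnane X receptor, which bile acids and drugs also bind, stood at 110, 58.3 and 101 FPKM in pomegranate-high livers and 163, 150 and 144 FPKM in control livers (−0.80 ± 0.30 SE, adjusted p = 0.429). Fgf21, a hepatokine of fasting and nutrient stress, stood at 157, 55.4 and 148 FPKM in pomegranate-high livers, 1.28, 23.7 and 41.6 FPKM in model livers, and 11.0, 23.4 and 29.1 FPKM in control livers. All 3 pomegranate-high libraries lay above the other 6, and the limma adjusted p was 0.478 against the model and 0.433 against the control. Pomegranate-high livers lay wholly above the controls for 12.4% of all genes. They had no overlap with model livers, in either direction, for 10.8%. The share of genes above both groups was not counted.

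Of 15 tested FXR targets and bile acid transporters, 0 passed the adjusted threshold in any comparison, and 1 of 15 had an unadjusted p under 0.05 in pomegranate-high against model livers, where 8.69% of all genes did. Abcb11, the pump that exports bile acids into bile and a direct FXR target, stood at 36.2, 47.3 and 65.5 FPKM in model livers and 63.5, 78.2 and 67.0 FPKM in control livers, which overlapped (−0.51 ± 0.29 SE, limma adjusted p = 0.999). Slco1b2, which takes up bile acids from blood, stood at 174, 73.4 and 71.7 FPKM in model livers and 64.6, 65.0 and 28.6 FPKM in control livers (0.96 ± 0.44 SE, adjusted p = 0.999). Slco1b2 and Atp8b1 were the 2 of 15 genes higher in model than in control livers without overlap, a pattern found in 3.97% of all genes tested. Slc10a1, the sodium-dependent uptake carrier, stood at 240, 197 and 196 FPKM in pomegranate-high livers and 315, 238 and 295 FPKM in model livers (−0.42 ± 0.24 SE, adjusted p = 0.641). Pltp, the phospholipid transfer protein, stood at 96.7, 36.7 and 15.6 FPKM in pomegranate-high livers and 5.99, 19.8 and 14.0 FPKM in model livers, which overlapped (adjusted p = 0.525).

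The time of day at which livers were taken is not given by the labels, and 13 tested clock genes with a known link to the Cyp7a1 rhythm were set beside it. In this list 0 passed the adjusted threshold, and those at an unadjusted p under 0.05 were 9 lower and 1 higher in pomegranate-high against model livers, where 8.69% of all genes reached this in either direction. In model against normal control 4 higher and 2 lower reached it, beside 2.98% of all genes, and in pomegranate-high against normal control 3 lower, beside 10.2%. Dbp, a transcription factor known to drive Cyp7a1 rhythm in rodents, stood at 21.5, 12.4 and 9.92 FPKM in pomegranate-high livers, 21.3, 87.6 and 79.6 FPKM in model livers, and 12.9, 9.51 and 14.2 FPKM in control livers. Its difference was 2.05 ± 0.49 SE in model against normal control (limma adjusted p = 0.999) and −1.86 ± 0.49 SE in pomegranate-high against model (adjusted p = 0.478). Model replicate 1, which had the highest Cyp7a1 value, had the lowest Dbp value of its group. Arntl, the core clock activator, stood at 4.85, 7.96 and 12.5 FPKM in pomegranate-high livers, 3.15, 1.64 and 3.02 FPKM in model livers, and 5.76, 8.02 and 8.26 FPKM in control livers. Per3, a period gene, stood at 1.01, 1.22 and 0.817 FPKM in pomegranate-high livers, 4.96, 5.09 and 3.72 FPKM in model livers, and 3.12, 1.95 and 1.82 FPKM in control livers. None of these groups overlapped, and the limma adjusted p was 0.158 for pomegranate-high against model. A lack of overlap was found in 10.8% of all genes in pomegranate-high against model and 16.1% in pomegranate-high against normal control. In model against normal control 3.97% of all genes were higher without overlap. The share without overlap in all 3 comparisons was not counted. The part of the clock genes in the Cyp7a1 values was not tested.

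As a description over the 9 libraries, the genes whose log2(FPKM + 1) was most like that of Cyp7a1 were Slc1a2, Obp1f, Iws1, Acsl5 and Clic2, with Pearson r of 0.91, 0.91, 0.90, 0.87 and 0.86. Obp1f was barely detected, at 0.245 to 2.02 FPKM, where a 1 kb gene with 3 reads would stand at 0.167 to 0.219 FPKM. Slc1a2 is also 1 of the 9 pericentral markers above. For Cyp8b1 they included Hnf4a, a transcription factor held in the hepatocyte marker and regulator lists, Sh3bgrl2, Depdc5 and Brap, with r of 0.98, 0.98, 0.98 and 0.97. These coefficients were picked as the highest among 11078 genes and the libraries share the differences in mitochondrial share given above, so that no test was made of them.

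**Figure D5:**
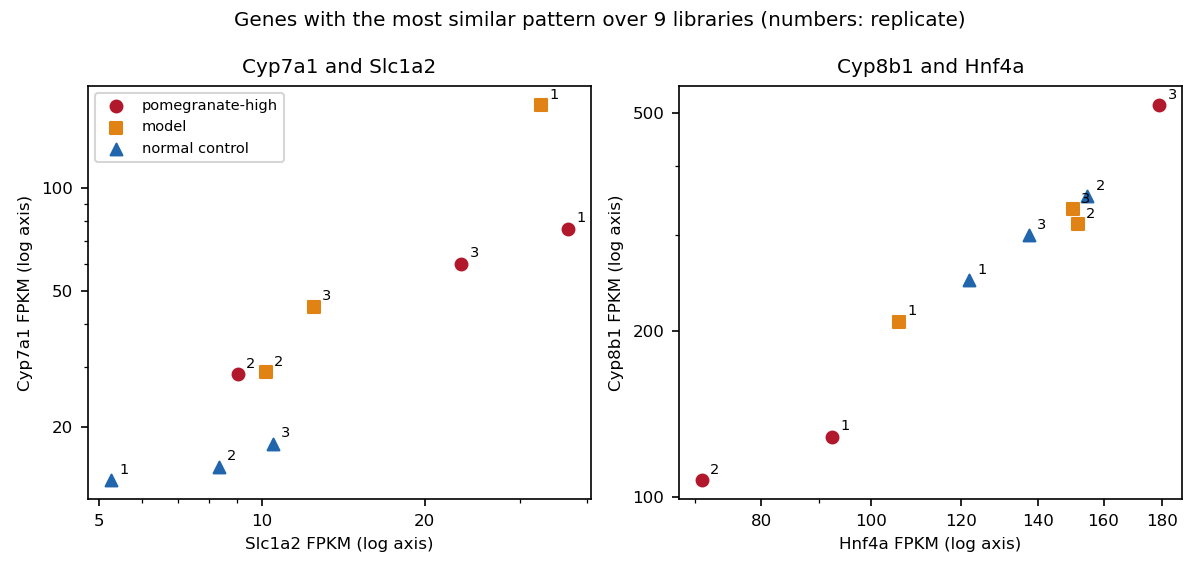
FPKM of Cyp7a1 against Slc1a2 (left) and of Cyp8b1 against Hnf4a (right) in the 9 libraries, on log axes, with colour and shape for the group and a number for the replicate. The points of the right panel lie close to a line (r = 0.98), and those of the left panel spread more widely (r = 0.91), with the 3 control libraries at the low end for Cyp7a1.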

How the data were processed

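The authors deposited 1 table of FPKM values for 20236 genes in 9 rat liver libraries, made per the labels' protocols from poly(A)-enriched RNA. Per the submitters' processing notes the build was Rnor_6.0 and the tools, listed without their roles, included HTSeq 0.6.0, Bowtie2 2.2.3, TopHat2 and HISAT2. How FPKM was computed is not stated in the sources used here. FPKM divides by the library total, so that a large share on a few genes lowers the rest. The labels' group field gave the groups, and replicates were numbered in sample order. The value columns left unmapped numbered 0. Genes with FPKM of at least 1 in at least 3 libraries were tested (11078), by limma 3.58.1 (R 4.3.3). Values entered as log2(FPKM + 1), whose pseudocount of 1 understates differences of low genes, with all 9 libraries in 1 fit, group levels, an intensity trend, two-sided tests and Benjamini-Hochberg adjustment per comparison. All gene code was tested on simulated data. Whole reads were recovered from the FPKM steps: 100% of 146433 values above 0 were whole within 0.001 reads, with lengths chosen to make them so, and these reads served limma's voom and the mitochondrial shares. Ratios and correlations were tested with exact permutation tests. The members, the gene lists and marker lists (169 symbols, 157 found in the file by symbol, 12 not analysed here) and the alternatives were chosen with earlier results of these data known. Named beside the 10 genes were those with the smallest p of each pathway list in a comparison (up to 3, not all printed) and the 5 genes most like Cyp7a1 and Cyp8b1, of which 1 is not reported here. No sequence is printed.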

Additional observations from a re-analysis of the deposited data

How the results depend on the processing

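The count of 0 of 10 genes past the adjusted threshold held in each comparison under all 22 alternatives that keep the adjusted p, and in the moderated F under those that keep the 3 groups. At an unadjusted p under 0.05 it was 1 in model against normal control, 1 in pomegranate-high against normal control and 1 in the moderated F, Cyp7a1 each time. Over the alternatives this count was 1 throughout in model against normal control, 0 to 3 in pomegranate-high against model, 0 to 5 in pomegranate-high against normal control and 0 to 4 in the moderated F, with the maxima of 3, 5 and 4 under the replicate block. In pomegranate-high against normal control Cyp7a1 lost it without pomegranate-high replicate 1, without pomegranate-high replicate 3, where Cyp8b1 had it, and with the mitochondrial covariate, where Hsd3b7 had it. In the moderated F the count was 0 with that covariate and without normal control replicate 1. The replicate block also raised the number of all 11078 genes with an unadjusted p under 0.05. It was 2339 in pomegranate-high against model, 2798 in pomegranate-high against normal control and 2250 in the moderated F. In the main fit these numbers were 963, 1125 and 850. The Cyp7a1 difference kept its sign against the controls in every alternative, from 1.16 to 2.43 in model livers and from 1.23 to 2.04 in pomegranate-high livers, with adjusted p from 0.291 to 1 and from 0.149 to 0.839. Of 30 differences, 7 never changed sign, and 77 of 660 values in the alternatives had the opposite sign. The cause was not tested.

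Rescaling moved the median of all genes in pomegranate-high against model livers from 0.09 on the log2 scale to −0.03 with median-of-ratios scaling. In pomegranate-high against model livers, Nr0b2 then turned to −0.0557 and Cyp7b1 to −0.0205 with that scaling, to −0.078 and −0.0237 with quantile normalization, and Nr0b2 to −0.0293 on the TPM scale. In pomegranate-high against normal control livers, Nr0b2 turned to −0.00104, −0.037 and −0.0346 under the same 3 scalings, and Nr1h4 to −0.0213 on the TPM scale. In model against normal control livers, Cyp8b1 and Hsd3b7 turned to 0.0248 and 0.0208 with quantile normalization, and Nr0b2 to −0.00533 on the TPM scale.

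With library quality weights, in model against normal control Cyp8b1 was 0.0287, Hsd3b7 0.25, Akr1d1 −0.00742 and Slc27a5 0.0475, in pomegranate-high against model Cyp7a1 was 0.00993, Cyp27a1 −0.0537, Hsd3b7 −0.35, Baat 0.25 and Nr0b2 −0.84, and in pomegranate-high against normal control Hsd3b7 was −0.10 and Nr0b2 −0.37. With the mitochondrial share as a covariate, in model against normal control Cyp8b1 was 0.51, Cyp7b1 −0.53, Hsd3b7 0.51 and Slc27a5 0.31, and in pomegranate-high against normal control Cyp7b1 was −0.37. Without the 3 libraries of highest mitochondrial share, which leaves 1 pomegranate-high library assumed to vary like the others, in model against normal control Cyp8b1 was 0.12, Cyp7b1 −0.17 and Hsd3b7 0.27. In pomegranate-high against model it gave Cyp7a1 0.72, Cyp8b1 0.68, Cyp7b1 −0.20, Akr1d1 0.13, Slc27a5 0.11, Baat 0.30, Nr1h4 0.14 and the log2 ratio of Cyp7a1 to Cyp7b1 0.92, and in pomegranate-high against normal control Cyp8b1 0.80, Cyp7b1 −0.37, Akr1d1 0.21 and Slc27a5 0.0146.

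A replicate block by the number in the library titles was fitted. Deviations of same-numbered model and control libraries correlated at 0.50 and 0.30. Those of pomegranate-high with a control library correlated at −0.04, and with a model library at −0.40. These correlations were not tested, and whether the numbers pair the libraries is not known. The block called 0 of 10 genes in every comparison, with 0 of all genes in model against normal control, 244 in pomegranate-high against model and 513 in pomegranate-high against normal control. In that fit pomegranate-high replicate 3, whose number occurs once, carries no weight. Under the block Hsd3b7 was −0.80, Baat 0.27 and Nr0b2 −0.91 in pomegranate-high against model, and Hsd3b7 −0.87 and Nr0b2 −0.44 in pomegranate-high against normal control. Larger under the block, with their sign kept, were Cyp8b1 (−1.52, adjusted p = 0.071), Cyp7b1 (1.82, adjusted p = 0.0893) and Slc27a5 (−1.83) in pomegranate-high against model, and Cyp8b1 (−1.56, adjusted p = 0.054), Cyp7b1 (2.12, adjusted p = 0.0548) and Slc27a5 (−1.84) in pomegranate-high against normal control.

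Leaving out 1 library at a time, differences of model from normal control ranged from −0.17 to 1.20 for Cyp7b1, −0.22 to 0.12 for Cyp8b1, −0.48 to 0.27 for Hsd3b7, −0.42 to 0.28 for Nr0b2 and −0.56 to 0.25 for Slc27a5. Those of pomegranate-high from model ranged from −0.80 to 0.48 for Cyp7a1, −0.57 to 0.75 for Cyp7b1, −0.13 to 0.70 for Hsd3b7, −0.36 to 0.14 for Baat, −0.26 to 0.0592 for Nr1h4, −0.54 to 0.94 for Nr0b2, −0.96 to 0.60 for the ratio of Cyp7a1 to Cyp7b1 and −1.23 to 0.34 for that of Cyp8b1 to Cyp7a1. Those of pomegranate-high from normal control ranged from −0.19 to 0.49 for Hsd3b7 and −0.52 to 0.96 for Nr0b2. Over all genes the number called was 1, 1 and 2 in model against normal control, pomegranate-high against model and pomegranate-high against normal control, and 0 to 1, 0 to 77 and 0 to 328 when 1 library was left out, with the maxima of 77 and 328 without pomegranate-high replicate 3. Among the alternatives other than these and the block, they were 0 to 10, 0 to 1 and 0 to 6, highest with library quality weights in the first and last of these. What the read depth adds to the width of the intervals was not tested.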
